A study of Mus musculus with 5 samples.

Results

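Cytokine and chemokine genes of the epithelium were followed in mouse salivary gland organoids (mSGOs) after photon and proton irradiation. The members were the 10 listed genes Il1a, Il1b, Il1rn, Il33, Cxcl1, Cxcl5, Cxcl16, Cxcl17, Ccl20 and Csf1, given by name, out of 31053 genes in the gene list of the 7-day and tissue libraries. All 10 were also in the list of 32285 genes used for the 11-day library. mSGOs are 3-dimensional cultures of submandibular gland cells embedded in Matrigel, an extract of basement membrane. The single-cell RNA-seq data held 5 libraries, 1 per group. Non-irradiated 7-day mSGOs served as control, and further 7-day mSGOs had received 7 Gy of photons or 7 Gy of protons (plateau) on day 5. The other libraries were non-irradiated 11-day mSGOs, which came from another batch of animals and another run, and fresh gland tissue. All mice were C57BL/6, and the labels give an age of 8 to 12 weeks for the tissue and for the animals behind the 7-day mSGOs. Organoids were derived from 4 animals. The medium of all 4 organoid groups contained EGF, FGF2, N2, insulin, the ROCK inhibitor Y27632, R-spondin1- and Wnt3a-conditioned medium and 1 µM dexamethasone, a glucocorticoid with anti-inflammatory action. For each sample 45000 living cells, negative for propidium iodide, were sorted. With 1 library per group no difference could be tested, and every interval below is a 95% interval that covers counting error alone, not the spread between animals or cultures. A higher summed level can come from more cells with the transcript or from more transcript per cell, which cannot be told apart in it.

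Epithelial cells make signals that recruit and instruct immune cells. IL-1α (Il1a) and IL-33 (Il33) are alarmins, stored in epithelial cells and released when these are damaged, whereas IL-1β (Il1b) is made mainly by myeloid cells and is cleaved before release. IL-1 receptor antagonist (Il1rn) occupies the IL-1 receptor without signalling. CXCL1 and CXCL5 attract neutrophils through CXCR2, CXCL16 is a membrane-bound chemokine that binds CXCR6 and is shed by ADAM10, CXCL17 is a mucosal chemokine, CCL20 attracts CCR6-bearing lymphocytes and dendritic cells, and CSF1 maintains macrophages through CSF1R. Many of these genes are known targets of NF-kB, the transcription factor that IL-1 receptors and other danger receptors activate.

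Some of the members are neighbours in the genome (RefSeq, GRCm38.p6). Il1a (chr2:129299609-129310186) and Il1b (chr2:129364569-129371164) were 54.4 kb apart. Cxcl5 (chr5:90759298-90761625) and Cxcl1 (chr5:90891245-90893121) lay within a stretch of 147 kb on chromosome 5 that also holds Ppbp, Cxcl3 and Cxcl2. Promoter windows of 300 bases, from 250 before to 50 after a transcript start, were found in RefSeq (GRCm38.p6) for 7 of the 10 genes, in 10 windows. The windows with a match to the NF-kB consensus or to AP-1 (TGANTCA) are where sequence and expression can be set side by side, and 4 of them are printed here, 5′ to 3′ on the strand of the gene. Capitals mark the NF-kB matches in Cxcl1, Ccl20 and Csf1 and the AP-1 match in Il1a, searched on both strands.
Cxcl1, chr5:90890995-90891294, plus strand: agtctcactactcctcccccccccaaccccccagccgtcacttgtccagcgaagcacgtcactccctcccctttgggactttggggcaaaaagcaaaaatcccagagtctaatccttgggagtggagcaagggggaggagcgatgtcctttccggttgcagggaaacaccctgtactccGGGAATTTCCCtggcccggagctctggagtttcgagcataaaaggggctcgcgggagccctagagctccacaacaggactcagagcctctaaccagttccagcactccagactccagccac
Ccl20, chr1:83116516-83116815, plus strand: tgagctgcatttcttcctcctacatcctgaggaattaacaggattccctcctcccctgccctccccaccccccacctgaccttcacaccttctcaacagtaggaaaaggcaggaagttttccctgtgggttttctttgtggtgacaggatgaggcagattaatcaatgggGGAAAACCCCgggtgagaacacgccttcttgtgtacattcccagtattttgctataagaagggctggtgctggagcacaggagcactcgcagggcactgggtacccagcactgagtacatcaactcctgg
Csf1, chr3:107760420-107760719, minus strand: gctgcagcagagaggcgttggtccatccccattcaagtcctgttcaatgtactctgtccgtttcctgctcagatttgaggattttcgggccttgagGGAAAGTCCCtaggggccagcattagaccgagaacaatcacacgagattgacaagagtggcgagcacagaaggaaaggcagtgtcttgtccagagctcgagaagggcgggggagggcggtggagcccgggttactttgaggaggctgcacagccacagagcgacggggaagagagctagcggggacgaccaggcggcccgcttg
Il1a, chr2:129309923-129310222, minus strand: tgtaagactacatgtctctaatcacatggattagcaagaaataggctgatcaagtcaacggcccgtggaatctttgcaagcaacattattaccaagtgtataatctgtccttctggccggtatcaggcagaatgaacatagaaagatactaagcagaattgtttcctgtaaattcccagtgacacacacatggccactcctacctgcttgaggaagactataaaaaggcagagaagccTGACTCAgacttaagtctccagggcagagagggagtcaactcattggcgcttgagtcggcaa
The marked stretch of Cxcl1 covers 2 overlapping NF-kB matches, 1 on each strand, which begin 71 and 70 bases before the start. The match of Ccl20 begins 80 bases and that of Csf1 154 bases before the start, and the AP-1 match of Il1a begins 12 bases before it. NF-kB matches were in 3 of the 10 member windows and in 8.46% of all 32851 windows of the same length. AP-1 matches were in 2 of the 10, the other being upstream of Il1rn, and in 7.81% of all windows. A match is a description of the letters and shows no binding.

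Kept barcodes numbered 1402 in tissue and 6494 to 15610 in the mSGO libraries, with 5932095 to 32070703 unique molecular identifiers (UMIs) per library. Median depth was 898.5 to 1049 UMIs per barcode in the 7-day libraries, 2385.5 in tissue and 3025 in 11-day mSGOs. Barcodes with at least 1% Malat1, a transcript retained in the nucleus, made up 16.0% of control, 10.0% of photon, 8.95% of proton and 98.8% of 11-day barcodes. They held 6766117 of the 15804359 UMIs of control, 8484731 of 25349615 in photon and 8222667 of 24792032 in proton. Epithelial markers (Epcam, Cdh1, Krt5, Krt14, Krt8, Krt18) were all detected, at a sum of 9942 to 10050 CPM (UMI counts scaled to a common library total) in the 7-day libraries. Most of that sum was Krt14, and the luminal keratins Krt8 and Krt18 were lower in photon and proton than in control, with log2 ratios of -0.39 and -0.33 for Krt8 and -0.33 and -0.17 for Krt18, while Krt5 had 0.16 and 0.00. Their part in the members' ratios was not tested. Of 27 immune markers, 16 to 18 were at 0 in each 7-day library, including the pan-leukocyte gene Ptprc and the macrophage genes C1qa, C1qb and C1qc, and the list summed to 48.5, 72.4 and 59.0 CPM in control, photon and proton. The tissue library held 1766 CPM of the same list. Pairs of libraries shared 3 to 69 barcode sequences.

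All 10 members were detected in each of the 3 irradiation libraries, at very different depths. Il1b and Ccl20 had fewer than 10 UMIs in each of these libraries, and their ratios carry almost no information. The levels below are CPM of UMIs summed over a library, and ratios are log2 ratios of CPM plus a pseudocount of 1, which shrinks the ratios of low genes.

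**Figure D1:**
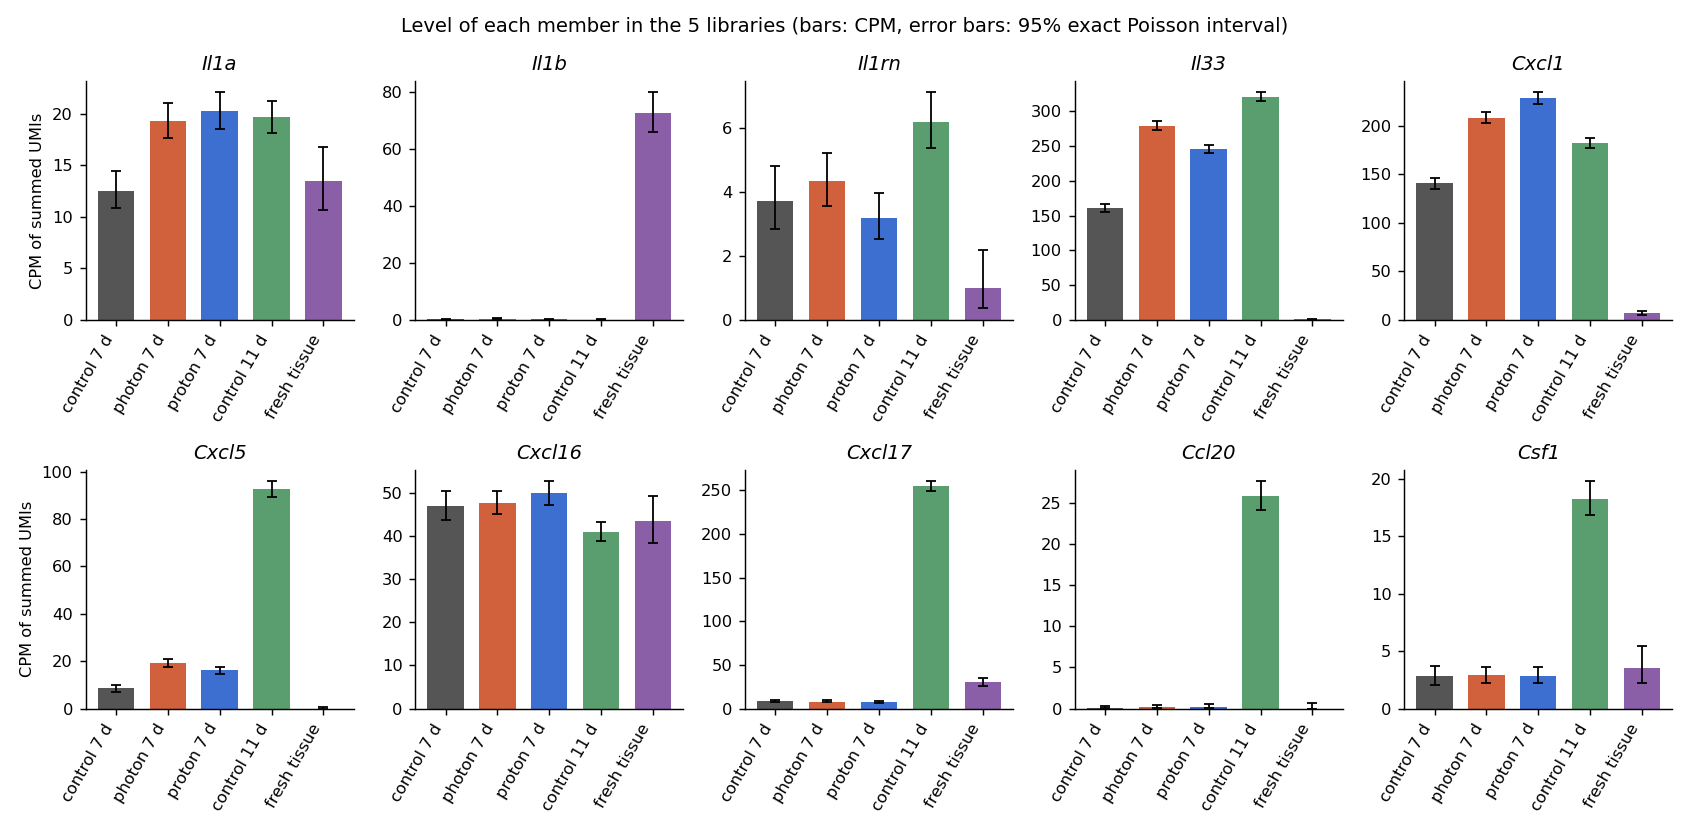
Level of each member in the 5 libraries, as CPM of summed UMIs on a linear axis that starts at 0, with 95% exact Poisson intervals as error bars. Il33, Cxcl1, Cxcl5 and Il1a were higher in the irradiated 7-day libraries than in the control library, Il1b was found mainly in tissue, and Cxcl17, Ccl20, Cxcl5 and Csf1 were highest at 11 days.

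The comparison of photon with control asked how organoid cells differed 2 days after the dose. Il33, Cxcl5, Il1a and Cxcl1 had higher levels in the photon library than in control, with intervals that did not include 0, while Cxcl16, Cxcl17, Csf1 and Il1rn had intervals that did. The largest ratio was that of Cxcl5, but not in every alternative. With barcodes thinned to 500 UMIs its log2 ratio was 0.68, below Il1a at 1.05 and Il33 at 0.78, with a mean over barcodes it was 0.78, below Il33 at 0.84, and with at most 2500 genes both Cxcl5 and Il33 were at 0.97. Cxcl5 had 134 UMIs in control and 488 in photon, a level of 8.48 CPM (interval 7.10 to 10.0) against 19.2 CPM (17.6 to 21.0), and the log2 ratio was 1.10 (0.83 to 1.37). Il33, the nuclear alarmin, was at 161 CPM (155 to 167) in control and 279 CPM (273 to 286) in photon, with a log2 ratio of 0.79 (0.73 to 0.86). The Il1a level was 12.5 CPM (10.8 to 14.4) in control and 19.3 CPM (17.6 to 21.1) in photon, a log2 ratio of 0.58 (0.36 to 0.82). Cxcl1 was at 141 CPM (135 to 147) and 208 CPM (203 to 214), a log2 ratio of 0.56 (0.49 to 0.64). These 4 ratios lay above those of 99.5%, 98.3%, 95.6% and 95.2% of the tested genes.

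Past 1.5-fold, which is used here in place of a test, photon had 2 members higher (Il33 and Cxcl5) and 0 lower. Il1a lay just under that limit. Among all 10530 genes with at least 50 UMIs in the 2 libraries, 4.43% were past 1.5-fold higher and 2.11% lower. The median log2 ratio was 0.37 over the 8 members tested by the same minimum and 0.09 over all tested genes, and 0.22 over the 9 members with at least 10 UMIs and 0.20 over all 10. The median of 0.22 is the ratio of Il1b itself, which had 2 UMIs in control and 8 in photon.

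In the proton library Cxcl5, Cxcl1, Il1a and Il33 were again the members with the higher levels. Cxcl5 had 398 UMIs and 16.1 CPM (14.5 to 17.7), a log2 ratio to control of 0.85 (0.58 to 1.13), which was 0.51 and under 1.5-fold with barcodes thinned to 500 UMIs. The Cxcl1 level was 229 CPM (223 to 235) and its log2 ratio 0.70 (0.63 to 0.77). Il1a was at 20.2 CPM (18.5 to 22.1) with a log2 ratio of 0.65 (0.42 to 0.88), and Il33 at 246 CPM (240 to 252) with a log2 ratio of 0.61 (0.54 to 0.68). All 4 were past 1.5-fold higher and 0 members were past it lower, where 3.87% of the 10442 tested genes were past it higher and 2.41% lower. Il33 and Il1a lay close to the limit. Il33 was at 0.52 with median-of-ratios size factors, 0.48 with at least 2000 UMIs and 0.54 with clusters weighted by control UMIs, and Il1a was at 0.56 with median-of-ratios size factors, 0.52 with at least 2000 UMIs and 0.50 with at most 2500 genes, all under 1.5-fold. The members' median log2 ratio was 0.35 over the 8 tested and 0.15 over all 10, against 0.09 over all tested genes. Photon and proton were compared with the same control library, so the likeness of these ratios is no independent repeat.

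**Figure D2:**
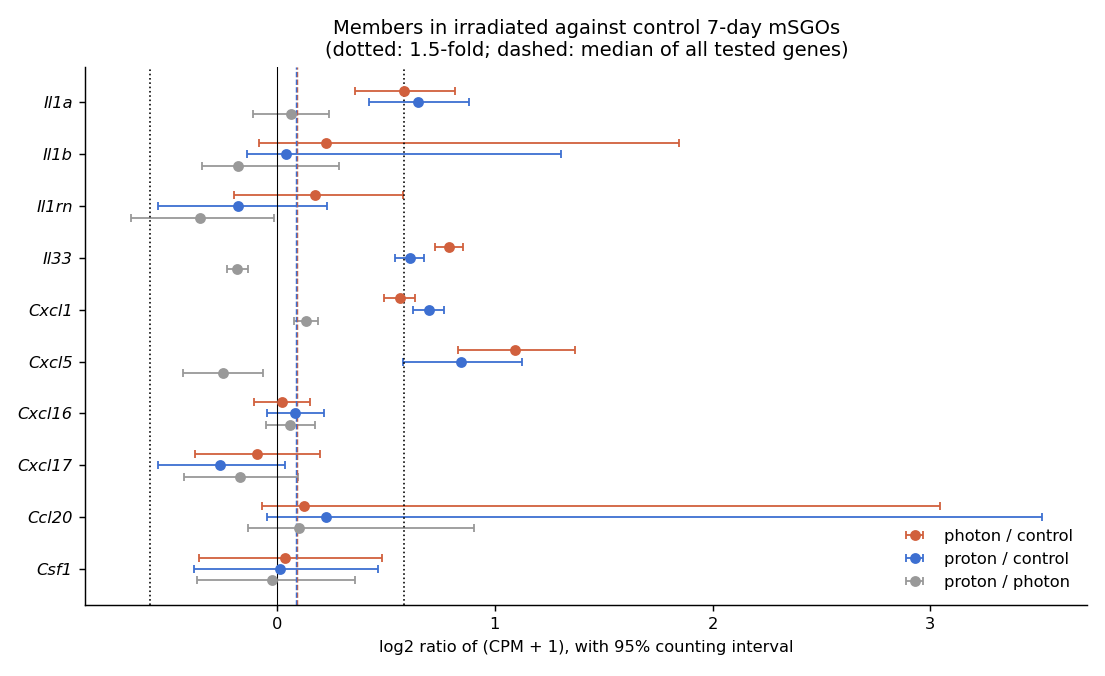
Log2 ratio of CPM plus 1 for each member in photon against control, proton against control and proton against photon, with 95% counting intervals, dotted lines at 1.5-fold and dashed lines at the median of all tested genes. Cxcl5, Il33, Cxcl1 and Il1a lie to the right of 0 in both irradiated libraries, and the intervals of Il1b and Ccl20 are too wide to place them.

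The other measured members had intervals that included 0 in both comparisons with control. Cxcl16 was among the most even, at 47.1 CPM (43.8 to 50.6) in control, 47.9 CPM (45.2 to 50.6) in photon and 50.0 CPM (47.2 to 52.8) in proton, with log2 ratios of 0.02 (-0.11 to 0.15) and 0.08 (-0.05 to 0.22). Csf1 had 44, 73 and 70 UMIs in control, photon and proton and log2 ratios of 0.04 (-0.36 to 0.48) and 0.02 (-0.38 to 0.46). The Csf1 intervals were much wider than those of Cxcl16. With median-of-ratios size factors the photon ratios of Cxcl16 and Csf1 were -0.07 and -0.03, so their sign depends on the scaling. The ratios of Cxcl17 were -0.09 (-0.37 to 0.20) in photon and -0.26 (-0.55 to 0.04) in proton, the latter interval lying below the all-gene median of 0.09.

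Il1rn is the antagonist in the list. It had 59, 110 and 79 UMIs, that is 3.73, 4.34 and 3.19 CPM in control, photon and proton. The log2 ratios to control were 0.17 (-0.20 to 0.58) in photon and -0.18 (-0.54 to 0.23) in proton, and the direct ratio of proton to photon was -0.35 (-0.67 to -0.01). Il1b, the myeloid IL-1, had 2 UMIs in control, 8 in photon and 4 in proton.

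Proton against photon, the only comparison here free of the shared control, showed small differences for all members. The Cxcl5 log2 ratio was -0.25 (-0.43 to -0.06), that of Il33 -0.18 (-0.23 to -0.13), that of Cxcl1 0.13 (0.08 to 0.19) and that of Il1a 0.06 (-0.11 to 0.24). Cxcl16 had 0.06 (-0.05 to 0.17), Cxcl17 -0.17 (-0.43 to 0.10) and Csf1 -0.02 (-0.37 to 0.36), and Il1b and Ccl20 had too few UMIs. Il1rn had the largest ratio of the members, -0.35 (-0.67 to -0.01), from 79 and 110 UMIs. So Cxcl1 was slightly higher and Il33, Cxcl5 and Il1rn slightly lower in the proton library, by less than 1.5-fold. Of the members 0 were past 1.5-fold in either direction, and of all 10785 tested genes 0.482% were past it higher and 0.686% lower. The median log2 ratio was -0.09 for the 10 members and -0.01 for all tested genes.

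The ratios of Il33, Cxcl1 and Il1a were smaller in barcodes rich in nuclear RNA, and those of Cxcl5 larger. Restricted to barcodes with at least 1% Malat1, the photon and proton log2 ratios were 0.34 (0.24 to 0.44) and 0.30 (0.20 to 0.40) for Il33, 0.31 (0.19 to 0.42) and 0.35 (0.23 to 0.46) for Cxcl1, and 0.31 (-0.04 to 0.66) and 0.47 (0.13 to 0.82) for Il1a. The Cxcl5 ratios were 1.44 (0.96 to 1.96) and 1.19 (0.70 to 1.71) in these barcodes, so Cxcl5 alone stayed past 1.5-fold. In the 193 to 245 barcodes per library with at least 2500 genes, the proton ratio of Cxcl1 was -0.03 and its photon ratio 0.22, and the ratios of Il33 were 0.32 in photon and 0.68 in proton. In the same barcodes the ratios of Il1a were larger, at 1.28 in photon and 1.54 in proton, as were those of Cxcl5, at 1.88 in both, and Cxcl17 in photon was at -0.83, past 1.5-fold lower. The part of nuclear RNA content in the results was not tested. Removing every barcode with a UMI of a pan-immune or macrophage marker left log2 ratios of 0.81 and 0.58 for Il33, 0.59 and 0.71 for Cxcl1, 0.68 and 0.66 for Il1a and 1.07 and 0.65 for Cxcl5 in photon and proton, so the differences were also present without those barcodes, with Il33 in proton just under 1.5-fold.

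Clusters of the merged 7-day libraries, built without the members, showed where the transcripts were. Only cluster 8 could be named. In clusters 1, 2, 3, 4, 6 and 7, with median depths of 776 to 2860.5 UMIs, no listed cell type marker reached 2-fold. Likeness across these clusters is therefore not likeness across known cell types. For Il33 and Cxcl1 the ratio to control was above 0 in 8 of 8 clusters in both irradiated libraries, from 0.11 to 1.16 for Il33 and from 0.28 to 1.70 for Cxcl1. Il1a was above 0 in 7 of 8 clusters in photon and 8 of 8 in proton. Cxcl5 was above 0 in 8 of 8 clusters in photon and in 5 of the 6 with at least 20 UMIs in proton. Clusters of the same libraries are not replicates, and low clusters had wide intervals.

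**Figure D3:**
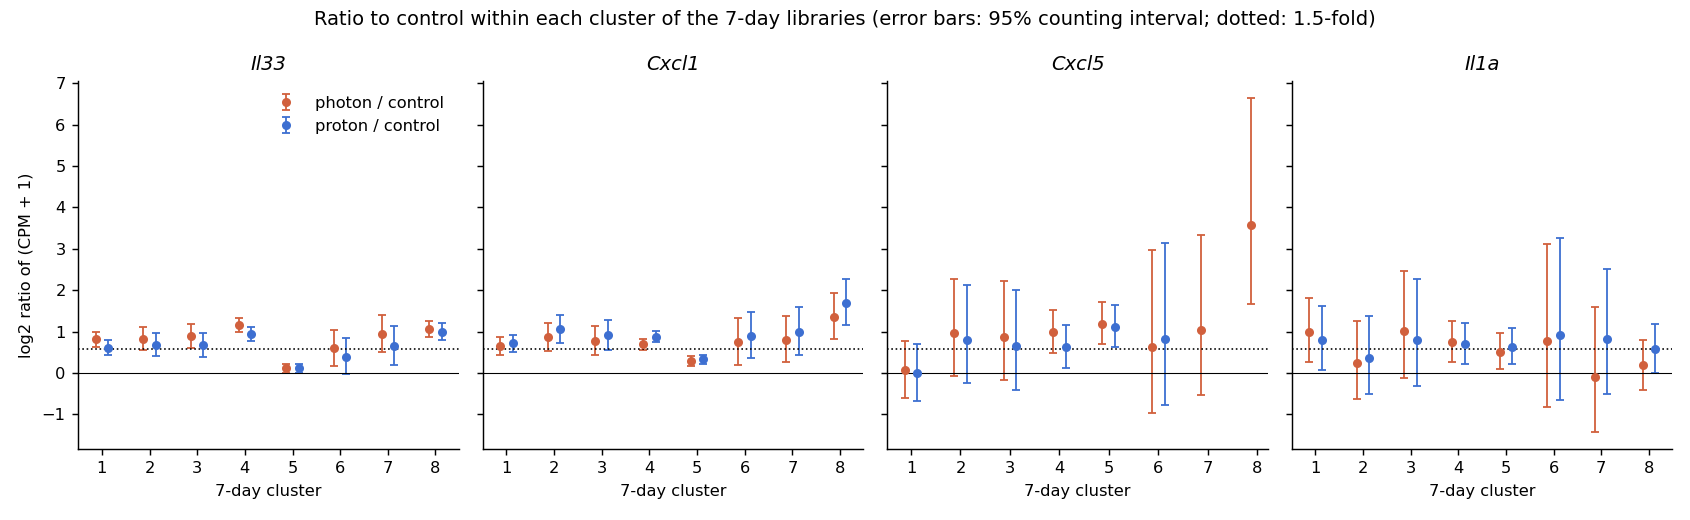
Log2 ratio of photon and proton to control within each of the 8 clusters of the 7-day libraries for Il33, Cxcl1, Cxcl5 and Il1a, for clusters with at least 20 UMIs in the pair of libraries, with 95% counting intervals. Il33 sits near 0 in cluster 5 and near 1 in clusters 4 and 8, and Cxcl5 in cluster 8 rests on 2 UMIs in control.

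Cluster 5, led by the nuclear transcripts Kcnq1ot1, Neat1, Malat1 and Xist, gave the smallest Il33 ratios. Il33 was at 173 CPM (163 to 183) there in control, 187 CPM (178 to 197) in photon and 187 CPM (177 to 197) in proton, log2 ratios of 0.11 (0.00 to 0.23) and 0.11 (-0.00 to 0.22). Cxcl1 in the same cluster had log2 ratios of 0.28 (0.17 to 0.40) and 0.33 (0.21 to 0.44). The cluster's Cxcl5 ratios, at 1.19 (0.70 to 1.71) and 1.12 (0.63 to 1.65), were not small.

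Cluster 8 was squamous-like, led by Sprr1a, Krt23 and Klk14, genes of cornifying epithelium, and had 174 barcodes. It held the highest Il33 and Il1a levels of the 7-day libraries. Il33 was at 543 CPM (485 to 607) in control, 1137 CPM (1053 to 1226) in photon and 1086 CPM (999 to 1179) in proton. Il1a was at 74.9 CPM (54.2 to 101) in control, 85.5 CPM (63.7 to 112) in photon and 113 CPM (86.3 to 146) in proton, and its level over the 3 libraries pooled was 90.5 CPM there against 12.9 to 24.5 CPM in the other clusters. The cluster took 67 barcodes of control, 57 of photon and 50 of proton, yet 21.7%, 10.4% and 12.0% of all Il1a UMIs. Cxcl16, even over whole libraries, had 15, 35 and 39 UMIs in this cluster, with log2 ratios of 1.14 (0.25 to 2.11) and 1.46 (0.58 to 2.42).

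The 11-day library had another level for most members, but so did most genes. Relative to the 7-day control and over the genes in both lists, 64.4% of 12189 tested genes were past 1.5-fold higher and 8.44% lower, with a median log2 ratio of 1.00, so the members' 7 higher and 0 lower of the 9 tested are near the background. With at least 1% Malat1 in both libraries the ratios of Il1a and Il1rn were 0.35 and 0.28, under 1.5-fold. Animals, run, culture time and software version differed together between these libraries and cannot be told apart. Cxcl17 had 136 UMIs (8.61 CPM) in the 7-day control and 8172 UMIs (255 CPM) at 11 days, a log2 ratio of 4.74 (4.50 to 5.00). Ccl20 had 1 UMI in the 7-day control and 830 UMIs (25.9 CPM) at 11 days, a log2 ratio of 4.67 (2.41 to 9.92). The log2 ratio of Cxcl5 was 3.31 (3.06 to 3.57), at 92.6 CPM, and that of Csf1 2.35 (1.94 to 2.81), at 18.2 CPM. Il33 was at 321 CPM with a log2 ratio of 1.00, equal to the median of all genes, and Cxcl16, at 41.0 CPM, had a log2 ratio of -0.19 (-0.32 to -0.06). Il1a, Il1rn and Cxcl1 lay below the median of all genes, with log2 ratios of 0.62 (0.40 to 0.84), 0.61 (0.25 to 1.00) and 0.38 (0.31 to 0.45), and Il1b had 1 UMI at 11 days.

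At 11 days Il1a, Ccl20 and Cxcl5 were gathered in 1 cluster. Cluster 4, with 1524 of 9484 barcodes, was led by Sprr2d, Psca, Sprr2f, Cxcl3, Krt6b and Ppbp, a mixture of stratified epithelium and chemokine genes, and stayed unnamed. It held 88.9% of the Il1a UMIs, 81.2% of the Ccl20 UMIs, 74.1% of the Cxcl5 UMIs and 42.8% of the Cxcl1 UMIs. Il1a was at 89.7 CPM (82.5 to 97.5) there and at 8.48 CPM (6.39 to 11.0) in cluster 3, the next highest. Ccl20 was at 108 CPM (100 to 117), with 17.2 CPM (9.84 to 28.0) in the next highest cluster, and Cxcl5 at 353 CPM (338 to 368), with 66.7 CPM (51.1 to 85.5) in the next.

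Transcripts of Il1a and Ccl20 were concentrated in few barcodes. The 1% of barcodes with the most UMIs of the gene held 89.4% of the Il1a and 94.2% of the Ccl20 UMIs at 11 days, and the richest single barcode held 59 Il1a or 99 Ccl20 UMIs. Only 1.71% and 1.51% of barcodes had a UMI of Il1a or Ccl20, so most of their UMIs had to fall in that 1%. For comparison the value was 62.3% for Il1rn, which had a UMI in 1.79% of barcodes, and 8.75% for Cxcl17, which had a UMI in 47.6%. Within cluster 4 the 122 barcodes with an Il1a UMI had a Ccl20 level of 649 CPM (593 to 708), against 32.2 CPM (27.6 to 37.3) in the 1402 without. Their Cxcl5 level was 1572 CPM (1485 to 1663) against 182 CPM (171 to 193), and their Il33 level 1292 CPM (1213 to 1375) against 399 CPM (383 to 417). Csf1 and Cxcl17 were not higher in them, at 6.51 CPM (2.12 to 15.2) against 15.2 CPM (12.1 to 18.8) and 285 CPM (249 to 326) against 398 CPM (381 to 415). Median depth was 5738.5 UMIs in the barcodes with Il1a and 3621.5 in those without, and the part of depth in these differences was not tested. In cluster 4, 27 barcodes held both Il1a and Ccl20 UMIs, which was 22.1% of those with Il1a and 33.8% of those with Ccl20.

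Il33 was also higher in barcodes with Il1a at 7 days. The control library had an Il33 level of 244 CPM (213 to 279) in the 155 barcodes with an Il1a UMI, whose median depth was 5251 UMIs, and 156 CPM in the others, at a median of 892. In photon the levels were 572 CPM (533 to 614) and 263 CPM, at median depths of 1214 and 1046 UMIs. In proton they were 575 CPM (537 to 615) and 225 CPM, at 1142 and 963 UMIs. Part of this came from the squamous-like cluster 8. Outside it, a restriction chosen after seeing the data, Il33 was at 193 CPM (163 to 228) against 144 CPM in control, 376 CPM (341 to 414) against 253 CPM in photon and 298 CPM (267 to 331) against 224 CPM in proton.

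**Figure D4:**
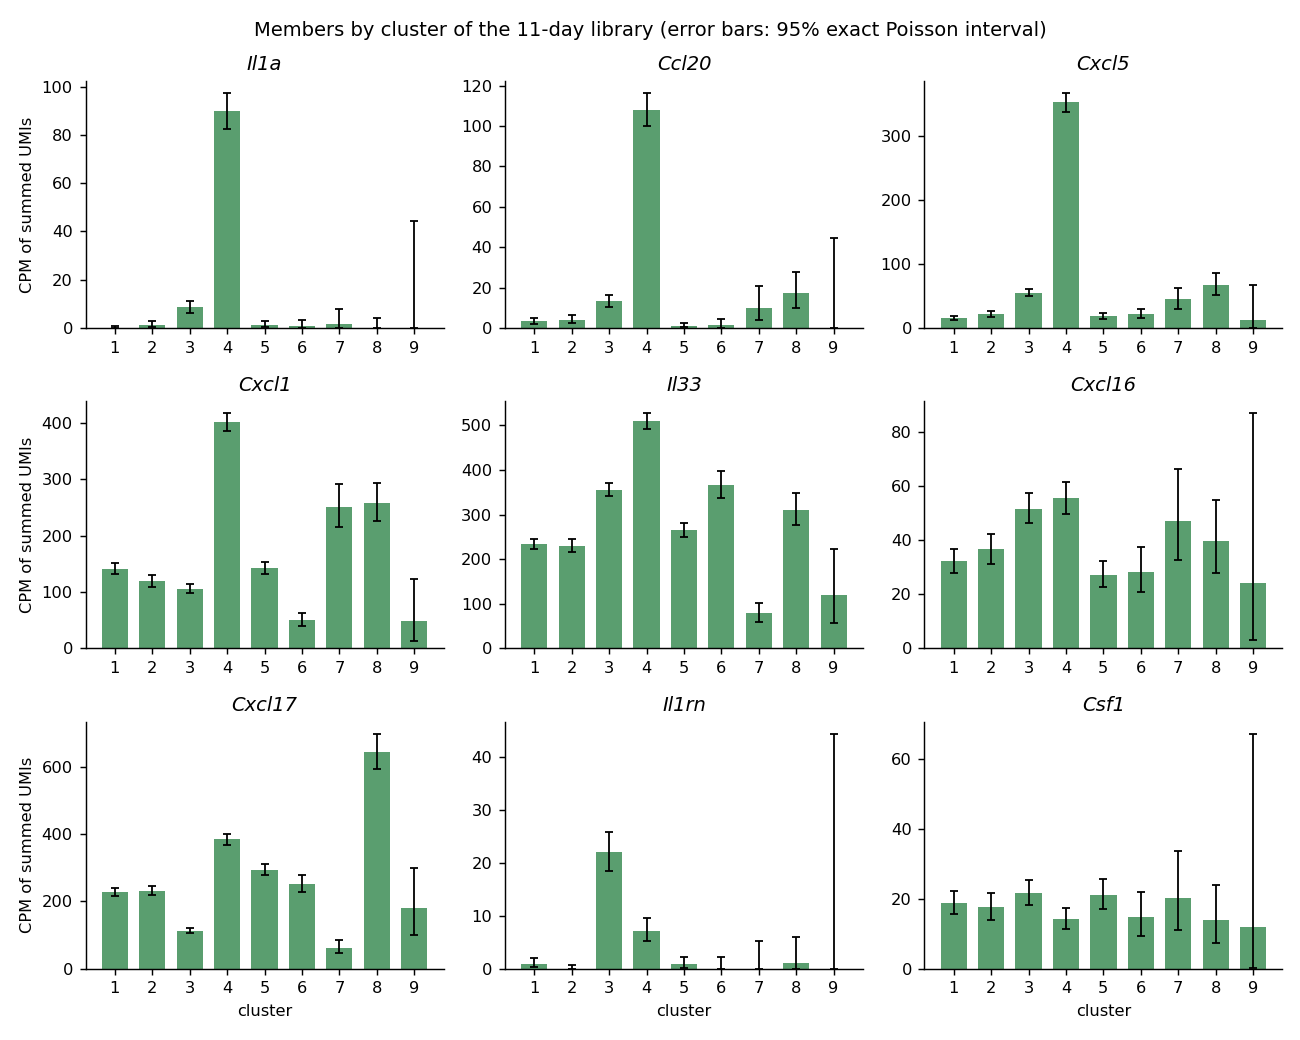
Level of 9 members, as CPM of summed UMIs on linear axes that start at 0, in the 9 clusters of the 11-day library, with 95% exact Poisson intervals. Il1a, Ccl20 and Cxcl5 peak in cluster 4, Il1rn in cluster 3 and Cxcl17 in cluster 8, while Csf1 lies between 12.1 and 21.6 CPM in all clusters.

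Other members had other maxima at 11 days. Il1rn was highest in cluster 3, cycling-like and led by Cenpf, Ube2c and Hmmr, at 22.05 CPM (18.6 to 26.0), which held 71.9% of its UMIs, and was at 7.21 CPM (5.26 to 9.65) in cluster 4. The agonist Il1a and its antagonist Il1rn thus had their highest levels in different clusters. Cxcl17 was highest in cluster 8, duct-like and led by Crisp3 and kallikrein genes, at 644 CPM (594 to 698), followed by cluster 4 at 384 CPM (369 to 400). Csf1 lay between 12.1 and 21.6 CPM in all 9 clusters, and neighbouring clusters in that order had overlapping intervals. Il33 was highest in cluster 4, at 509 CPM (492 to 527), and lowest in cluster 7, at 78.9 CPM, which was led by Dcpp1, Dcpp3 and Acta2.

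Fresh tissue gave another picture, with Il1b in place of Il33. In the comparison with the 7-day control 9.38% of 9608 tested genes were past 1.5-fold higher in tissue and 71.5% lower, and of the 9 tested members 2 were higher and 4 lower. Il1b had 432 UMIs and 72.8 CPM (66.1 to 80.0) in tissue against 2 UMIs in control, a log2 ratio of 6.03 (4.22 to 9.07). Il33 had 4 UMIs in tissue, a log2 ratio of -6.60 (-7.10 to -5.89), and Cxcl1 42 UMIs, a log2 ratio of -4.13 (-4.54 to -3.74). Cxcl5 had 0 UMIs in tissue, which allows a level of up to 0.506 CPM (3 counts), so its level in the 7-day control was at least 16.8-fold higher. Ccl20 also had 0 UMIs there. Cxcl17 was at 30.01 CPM (25.8 to 34.8), a log2 ratio of 1.69 (1.37 to 2.01). Il1rn had 6 UMIs and a log2 ratio of -1.23 (-1.80 to -0.50), and Il1a, Cxcl16 and Csf1 had 0.10 (-0.26 to 0.46), -0.11 (-0.31 to 0.10) and 0.26 (-0.34 to 0.90). These ratios depended on the barcodes used. With at least 1% Malat1, which leaves 158 tissue barcodes, the log2 ratio was 0.12 (-1.29 to 1.46) for Il1rn, 2.09 (1.59 to 2.58) for Il1a, 2.20 (1.92 to 2.48) for Cxcl16 and 2.36 (1.40 to 3.33) for Csf1, while Il33 and Cxcl1 stayed lower, at -5.00 and -2.16. Il1b and Cxcl17 had larger ratios there, at 8.26 (5.79 to 13.57) and 3.44 (2.92 to 3.96). The kept tissue barcodes, 1402 of 13547 deposited, had a median of 278 genes, and the epithelial markers summed to 519 CPM, against 10050 CPM in the 7-day control.

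**Figure D5:**
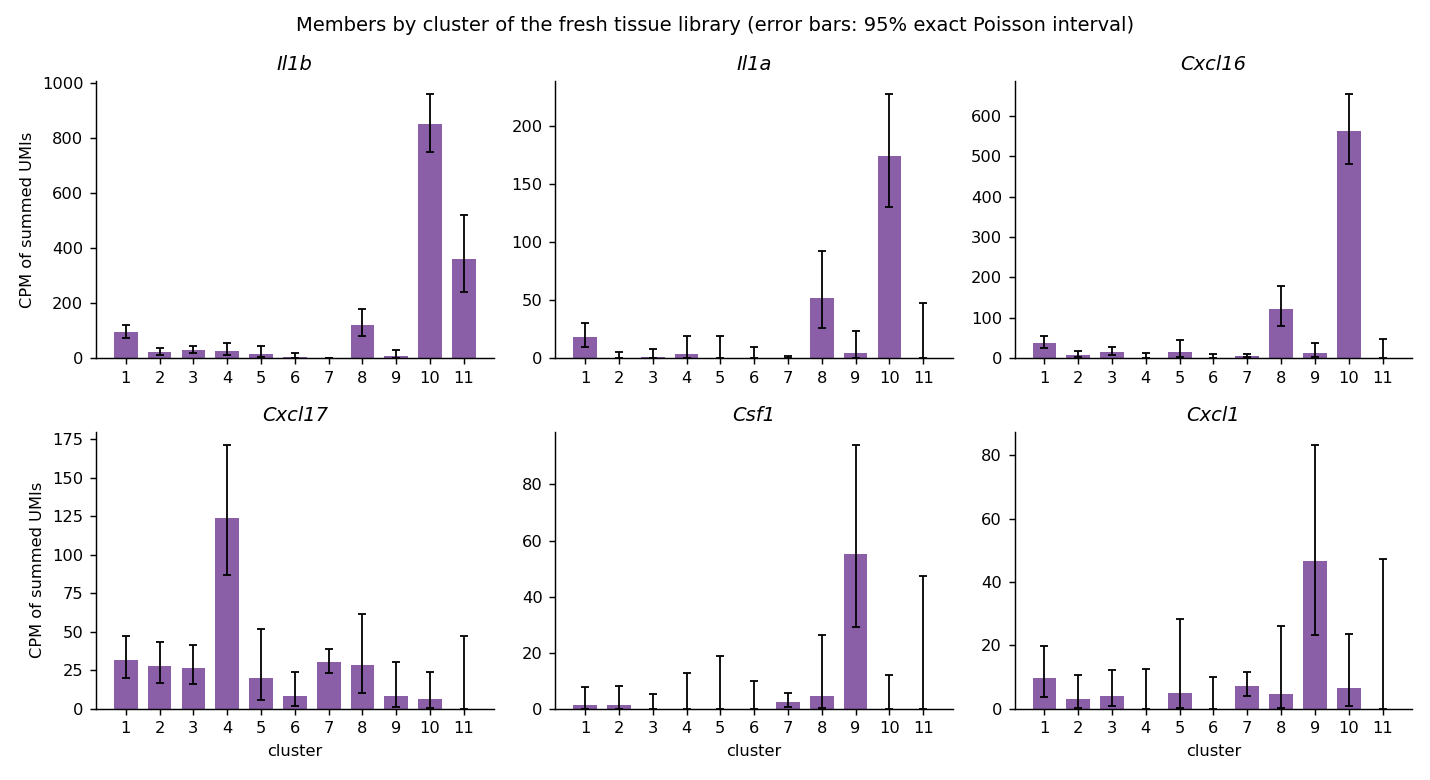
Level of 6 members, as CPM of summed UMIs on linear axes that start at 0, in the 11 clusters of the fresh tissue library, with 95% exact Poisson intervals. Il1b, Il1a and Cxcl16 are highest in cluster 10, Cxcl17 in cluster 4, and Csf1 and Cxcl1 in cluster 9.

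In tissue Il1b, Il1a and Cxcl16 were held by the same cluster. Cluster 10, with 44 barcodes led by Ccr7, Il12b, Cx3cr1, Ccl22 and Ccl17, genes of antigen-presenting cells, had 848 CPM (748 to 958) of Il1b, 174 CPM (130 to 227) of Il1a and 563 CPM (482 to 654) of Cxcl16, and held 59.95%, 66.2% and 66.4% of their UMIs. In it 8 of 9 macrophage and 4 of 4 pan-immune markers were at least 2-fold up. None of them was among its 10 leading genes, so the cluster stayed unnamed. Cluster 8, macrophage-like by C1qb, Cd68 and Aif1, had 122 CPM (79.8 to 179) of Il1b and 122 CPM (79.8 to 179) of Cxcl16. Cluster 1, led by Krt14, Ccl2 and Cldn4 and unnamed, held 16.0% of the Il1b UMIs at 94.4 CPM (73.5 to 120), with a UMI in 12.9% of its barcodes, and Il1a and Cxcl16 were at 17.8 CPM (9.47 to 30.4) and 38.3 CPM (25.4 to 55.4) there. Cluster 11, with 18 barcodes, had 359 CPM (239 to 519) of Il1b and 0 UMIs of Il1a and Cxcl16. It was led by S100a8, Retnlg and S100a9, neutrophil genes, but also by Gzmc and Gzmb, genes of cytotoxic lymphocytes, and stayed unnamed. At least 2-fold above the other barcodes were 4 of 7 T and NK, 4 of 9 macrophage and 2 of 4 granulocyte markers, so the cluster was mixed. The share of barcodes with an Il1b UMI was 47.7% in cluster 10 at a median of 6819.5 UMIs, 0% in the acinar-like cluster 7 at 12964 UMIs and 6.45% in cluster 3, which was led by haemoglobin genes, at 2331.5 UMIs. Shares at or below that of the haemoglobin cluster are read as background. Csf1 was highest in the endothelial-like cluster 9, with 13 of its 21 UMIs and 55.0 CPM (29.3 to 94.1). Cxcl17 was highest in cluster 4, led by the kallikrein genes Klk1b22 and Klk1b11, at 124 CPM (86.7 to 171).

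Several receptors of the members had no transcript in the 7-day libraries. Ccr6, the receptor of CCL20, and Il1rl1, the receptor of IL-33, had 0 UMIs in all 3 of the 7-day libraries, and so had the decoy receptor Ackr1. Csf1r had 0 UMIs in control and photon and 1 UMI in proton, against 37.1 CPM in tissue. Il1r1, the signalling IL-1 receptor, was at 0.949, 1.46 and 0.766 CPM in control, photon and proton and at 19.8 CPM in 11-day mSGOs, and its co-receptor Il1rap was at 11.5, 11.5 and 10.2 CPM and at 54.1 CPM at 11 days. Of the sheddases that release CXCL16 and other ligands, Adam10 had a log2 ratio of 0.19 in photon and 0.13 in proton, and Adam17 of 0.01 and 0.03. Of 15 receptors and sheddases, 4 were tested in photon and 3 in proton and 0 were past 1.5-fold. Of all tested genes 4.43% in photon and 3.87% in proton were past it higher, and 2.11% and 2.41% lower, so 0 among so few genes is near the background.

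Of 29 genes of the IL-1 pathway 19 were tested in photon, 4 past 1.5-fold higher (4.43% of all tested genes) and 0 lower, with a median log2 ratio of 0.10, and 18 in proton, 3 higher (3.87% of all) and 1 lower, with a median of 0.10. The highest photon ratios were those of Il36g, an epithelial IL-1 family agonist, at 1.00 (0.58 to 1.47), and Sigirr, an inhibitory receptor, at 0.85 (0.49 to 1.23). The proton ratios of these genes were 0.77 (0.35 to 1.24) and 0.77 (0.41 to 1.16). The lowest photon ratios were those of Il1rl2, the IL-36 receptor, at -0.31 (-0.68 to 0.12), and the kinase Irak2, at -0.24 (-0.51 to 0.05). Il1rl2 was the 1 lower gene in proton, at -0.63 (-0.99 to -0.21).

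NF-kB regulators and targets had median ratios close to those of all genes. Of 26 tested genes in either comparison, 1 was past 1.5-fold higher in photon and 0 in proton (4.43% and 3.87% of all tested genes). Past it lower were 0 and 1 (2.11% and 2.41% of all). The median log2 ratios were 0.06 and 0.04, against 0.09 over all tested genes. Lcn2, a secreted antimicrobial protein, was highest in photon at 1.03 (0.89 to 1.17), with 0.43 (0.28 to 0.58) in proton, followed by the kinase Chuk at 0.39 (0.17 to 0.61). The kinase Map3k8 had the lowest ratios, -0.46 (-0.66 to -0.25) and -0.59 (-0.80 to -0.38), and Zc3h12a, a nuclease that degrades cytokine mRNA, was at -0.37 (-0.63 to -0.11) in photon.

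Among 45 other cytokines and chemokines, 15 were tested in either comparison, 4 and 5 were past 1.5-fold higher (4.43% and 3.87% of all tested genes) and 0 lower, with median log2 ratios of 0.26 in photon and 0.21 in proton. Cxcl10, a chemokine for T cells, was highest, at 1.58 CPM in control, 14.4 CPM in photon and 7.83 CPM in proton, log2 ratios of 2.58 (2.04 to 3.19) and 1.77 (1.25 to 2.37). Cxcl3, a CXCR2 ligand, was next in photon at 14.6, 42.7 and 33.2 CPM, log2 ratios of 1.49 (1.29 to 1.70) and 1.14 (0.93 to 1.35). Ccl5, a chemokine for T cells named after its values were seen, had 14, 67 and 101 UMIs and log2 ratios of 0.95 (0.39 to 1.69) and 1.43 (0.82 to 2.21), above Cxcl3 in proton. Cxcl2, named after its values were seen because it is the neighbour of Cxcl1, was at 52.9, 90.9 and 88.5 CPM, log2 ratios of 0.77 (0.66 to 0.89) and 0.73 (0.62 to 0.85). At the low end of the list were Cxcl14, at -0.27 (-0.65 to 0.16), and Tgfb1, at -0.20 (-0.31 to -0.10), in photon. The receptor Cxcr2 had 2, 12 and 8 UMIs in control, photon and proton, too few for a comparison.

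Some immune markers were detected in the 7-day libraries. Of 27 markers 4 were tested, and in photon 2 and in proton 1 were past 1.5-fold higher (4.43% and 3.87% of all tested genes) and 0 lower. Their median log2 ratios were 0.58 and 0.28, against 0.09 over all tested genes in either comparison. Cd68, a lysosomal gene that epithelial cells also use, had 0.81 (0.60 to 1.03) in photon and 0.66 (0.45 to 0.88) in proton, and S100a8, which keratinocytes also make, 0.64 (0.36 to 0.93) and 0.13 (-0.16 to 0.43). S100a9 had 0.25 (0.06 to 0.44) in photon and -0.12 (-0.32 to 0.09) in proton, and Cd14 had 0.51 (0.20 to 0.85) and 0.44 (0.12 to 0.78). The part of these transcripts in the members' ratios was not tested.

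The genes most like each member in pattern were looked up over 42 clusters within libraries, by Pearson's r of log2(CPM + 1) among 10854 genes. Only clusters with at least 50 barcodes in a library entered, which left out tissue clusters 10 and 11 and with them most of the tissue UMIs of Il1b, Il1a and Cxcl16. These units share libraries and depth, so r is a description. Il33 was most like Dsc3, a desmosomal cadherin, Cdkn2b and Prrg4 (r of 0.982 for each). Il1b was most like C1qa (0.977), Ccl4 (0.974) and Tyrobp (0.973), all myeloid genes. Cxcl5 went with Inhba (0.928), Adamtsl4 (0.927) and Galnt6 (0.919), and Cxcl17 with Esrrg (0.93), Cobl (0.917) and Tmem117 (0.913). Il1a went with AA467197 (0.882), S100a8 (0.855) and Ifi209 (0.825), Ccl20 with Steap4 (0.850), Gm16685 (0.849) and Ifitm1 (0.838), and Cxcl1 with Med10 (0.949), Eif4h (0.944) and Tmem43 (0.944). Cxcl16 was most like Nmt1 (0.864), Snrpb2 (0.847) and Rgs10 (0.843), and Csf1 like Parp14 (0.870), Vrk3 (0.861) and Il6st (0.859). Il1rn, whose maximum was the cycling-like cluster, was most like Aplf (0.691), Spc25 (0.686) and Map4k1 (0.661).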

How the data were processed

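Single-cell libraries of 3 groups of 7-day mSGOs, of 11-day mSGOs and of fresh tissue were analysed, with groups taken from the sample labels. The authors deposited whole-number counts of UMIs per gene and barcode. The file headers name software versions 3.0.1 (7-day, tissue) and 7.0.0 (11-day), while the submitters' processing notes name Cell Ranger 5 and mm10. The study's methods name GRCm39, so the build used for counting is unsure, and coordinates and promoters are those of RefSeq on GRCm38.p6. The lowest total of any deposited barcode was 500 UMIs.

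Barcodes were kept with at least 200 genes and at most 5% mitochondrial UMIs. Doublets were scored with Scrublet (scanpy 1.11.5). Its automatic threshold marked 0.029% of control, 0% of photon, 10.059% of proton and 0.01% of 11-day barcodes, so in every library the highest scores up to 0.8% per 1000 barcodes were removed (5.50%, 14.6%, 14.3%, 8.27% and, in tissue, 1.13%). A limit of 2500 genes in the study's methods leaves 193 control barcodes if read as a minimum and 6301 if read as a maximum, and both were run as alternatives. UMIs were summed per library and scaled to its total (CPM). The 95% intervals were computed by the exact Poisson method for levels and by a conditional binomial for ratios. With 1 library per group there is no test and no p-value, and the call rule is 1.5-fold. Genes count as tested with 50 UMIs or more in the libraries compared. Members were removed before clustering (2000 variable genes, 30 components, 15 neighbours, Leiden resolution 0.8, leidenalg 0.10.2). Cluster names were rebuilt from marker lists. A name needed at least 3 markers of a cell type at 2-fold or more, at least 1 of them among the cluster's 10 leading genes. The ratio function was tested on simulated data.

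All 10 members are named in every comparison. Of each context list the 2 highest and 2 lowest photon ratios among tested genes are named, with markers and receptors at 0, and for each member the 3 genes closest in pattern. The members, lists and rules were chosen with earlier results of these data known. In all, 14 alternatives of filter, scaling and weighting were run.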

Additional observations from a re-analysis of the deposited data

How the results depend on the processing

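The number of members past 1.5-fold in photon (2) was 4 with a pseudocount of 0.1 CPM (Il1a, Il1b, Il33, Cxcl5), 4 (Il1a, Il33, Cxcl1, Cxcl5) with each barcode thinned to 500 UMIs, with a mean over barcodes and without barcodes holding an immune UMI, and 1 with barcodes of at least 1% Malat1. The number in proton (4) was 2 with median-of-ratios size factors and with barcodes of at least 2000 UMIs, and 1 with at least 1% Malat1. The proton median log2 ratio (0.347) was 0.154 with no filter on low counts, 0.629 over members with at least 200 UMIs and 0.097 in barcodes with at least 2500 genes, where proton against photon (-0.094) was 0.207. The photon median (0.224, the ratio of the low-count Il1b) was 0.574 over members with at least 200 UMIs, 0.566 with a pseudocount of 0.1 CPM and 0.166 at the lowest, with at least 1% Malat1. Cxcl1 in proton was -0.033 in barcodes with at least 2500 genes, of which the control had 193. The cause of these shifts was not tested, and the subsets also held fewer barcodes. Ratios of Il33, Cxcl5 and Il1a kept their sign in 12 of 12 alternatives in both comparisons, and those of Cxcl1 in 12 in photon and 11 in proton. Median-of-ratios scaling lowered the ratios to control by up to 0.09, less for members with low levels. No paired analysis was possible because each group holds 1 library. Depth limits Il1b and Ccl20 in the 7-day libraries, and counting intervals leave out the spread between cultures.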
